A study of Mus musculus with 4 samples.

Results

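Runx3 peaks were examined at 8 receptor genes through which dendritic cells (DC) and their precursors sense growth factors: Flt3, Kit, Csf1r, Csf2ra, Il3ra, Csf2rb, Csf2rb2 and Csf3r. A peak was counted at a gene when its centre lay in the gene body or within 50 kb of it, with positions on mm9 and genes from GENCODE M1. Of the 15121 peaks in the list, 31 met this rule, and they fell at 7 of the 8 genes. No peak was counted at more than 1 of these genes.

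The list comes from chromatin immunoprecipitation and sequencing (ChIP-seq) of Runx3, a transcription factor of the RUNX family, in the CD11chiMHCII+CD4+ subset of splenic DC. There were 2 Runx3 immunoprecipitates, made with an in-house polyclonal anti-Runx3 antibody, and 2 input samples of whole cell extract chromatin without immunoprecipitation. Cells were sorted from the spleens of mice of the C57BL/6 strain, although 1 input label reads C57BL/7. About 15 mice are given for each sample. The labels name no treatment, mutation or age, and the comparison held no Runx3-deficient sample. The authors called peaks once, on both immunoprecipitates against both inputs, so each peak has 1 start, 1 end and 1 score and no value per replicate.

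No spread between replicates can therefore be given for any value here, and depth per sample was not analysed. The score is the number MACS2 wrote for each peak; its unit is not stated, and it served only to rank peaks within the list, where it ran from 1.33 to 309.3 with a median of 12.14 and an upper quartile of 23.19. Binding does not measure expression, so the labelled cell type could not be checked by transcript levels. Among genes that mark cell types, 7 peaks were counted at Itgax, which encodes CD11c, 14 at H2-Ab1 and 5 at Cd4. There were 7 at Zbtb46, 2 at Cd3e and 0 at Cd8a, and 62.6% of all protein-coding genes had at least 1 peak. The highest score at these genes, 99.56, was at Cd3e, and the bodies of H2-Ab1, Cd4 and Cd3e held no peak. These counts do not check the cell type.

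Flt3, Kit and Csf1r encode class III receptor tyrosine kinases, which dimerise when they bind Flt3 ligand, stem cell factor, or CSF-1 and IL-34, and start signalling through their own kinase domains. The receptors for GM-CSF, IL-3 and G-CSF belong to the cytokine receptor family, have no kinase of their own and act through Janus kinases and Stat proteins. Flt3 signalling drives the generation of DC from bone marrow precursors and their upkeep in the spleen, Csf1r serves monocytes and macrophages, and GM-CSF acts on several myeloid cells, DC among them.

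The 31 peaks were spread unevenly over the genes. Flt3 had 8 peaks, Csf3r had 6 and Kit had 5, while Csf1r, Csf2ra, Il3ra and Csf2rb2 had 3 each and Csf2rb had none. A peak was thus counted at 7 of 8 receptor genes, where 62.6% of the 22367 protein-coding genes had at least 1. The median was 3 peaks per receptor gene and 1 per protein-coding gene. Per 100 kb of window the medians were 2.75 and 0.88 peaks. As many peaks as at Flt3 or more were counted at 2.52% of protein-coding genes, as many as at Csf3r at 7.31%, as many as at Kit at 11.7%, and 3 or more at 29.7%.

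**Figure D1:**
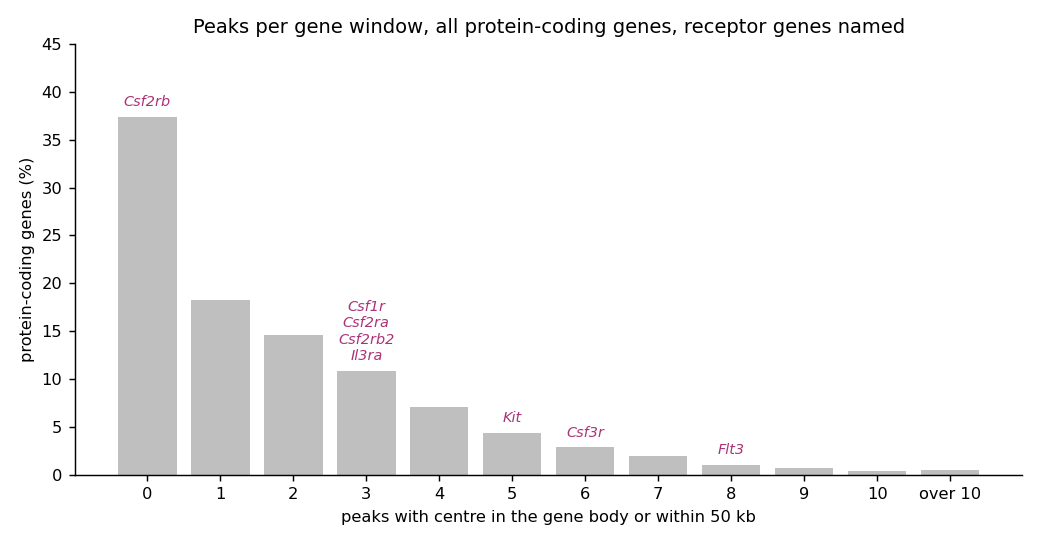
The bars give the percentage of 22367 protein-coding genes (y axis) with each number of peaks in the gene body or within 50 kb (x axis), and the receptor genes are named above the bar of their own count. Csf2rb stands over the bar at 0, 4 receptor genes over the bar at 3, and Kit, Csf3r and Flt3 at 5, 6 and 8 peaks.

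Of the 31 peaks, 15 lay inside a receptor gene and 16 outside. The body of 6 of the 8 genes held a peak, against 23.2% of protein-coding genes, and the exceptions were Csf2rb and Csf2rb2. A peak lay within 1 kb of a transcription start site (TSS) of its own gene at Flt3, Kit and Il3ra, which is 3 of 8 genes against 24.9% of protein-coding genes. At 6 of 8 genes at least 1 peak had a score at or above the upper quartile of the list, against 31.0% of protein-coding genes; Csf2ra was the gene with peaks but none that high. Gene bodies differ in length and in the number of annotated TSS, and these shares were not adjusted for either.

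By rank, the receptor gene peaks ran from percentile 1.52 to percentile 96.5 of the scores of the list. Their median was 11.96, with an order-statistic 95% interval of 7.2 to 17.32, beside 12.14 for all peaks. The lowest was 3.17 in Il3ra and the highest 68.13 in Flt3. Scores at or above the list median were held by 15 of the 31 peaks and scores at or above the upper quartile by 8. Most receptor genes thus had more peaks than the median protein-coding gene, while the interval of the median score of these peaks held that of the list. For each peak the nearest TSS was taken over all annotated transcripts of protein-coding genes, noncoding transcripts included. The 22 peaks for which it belonged to the receptor gene had a median score of 13.315, and the other 9 had a median of 11.96.

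**Figure D2:**
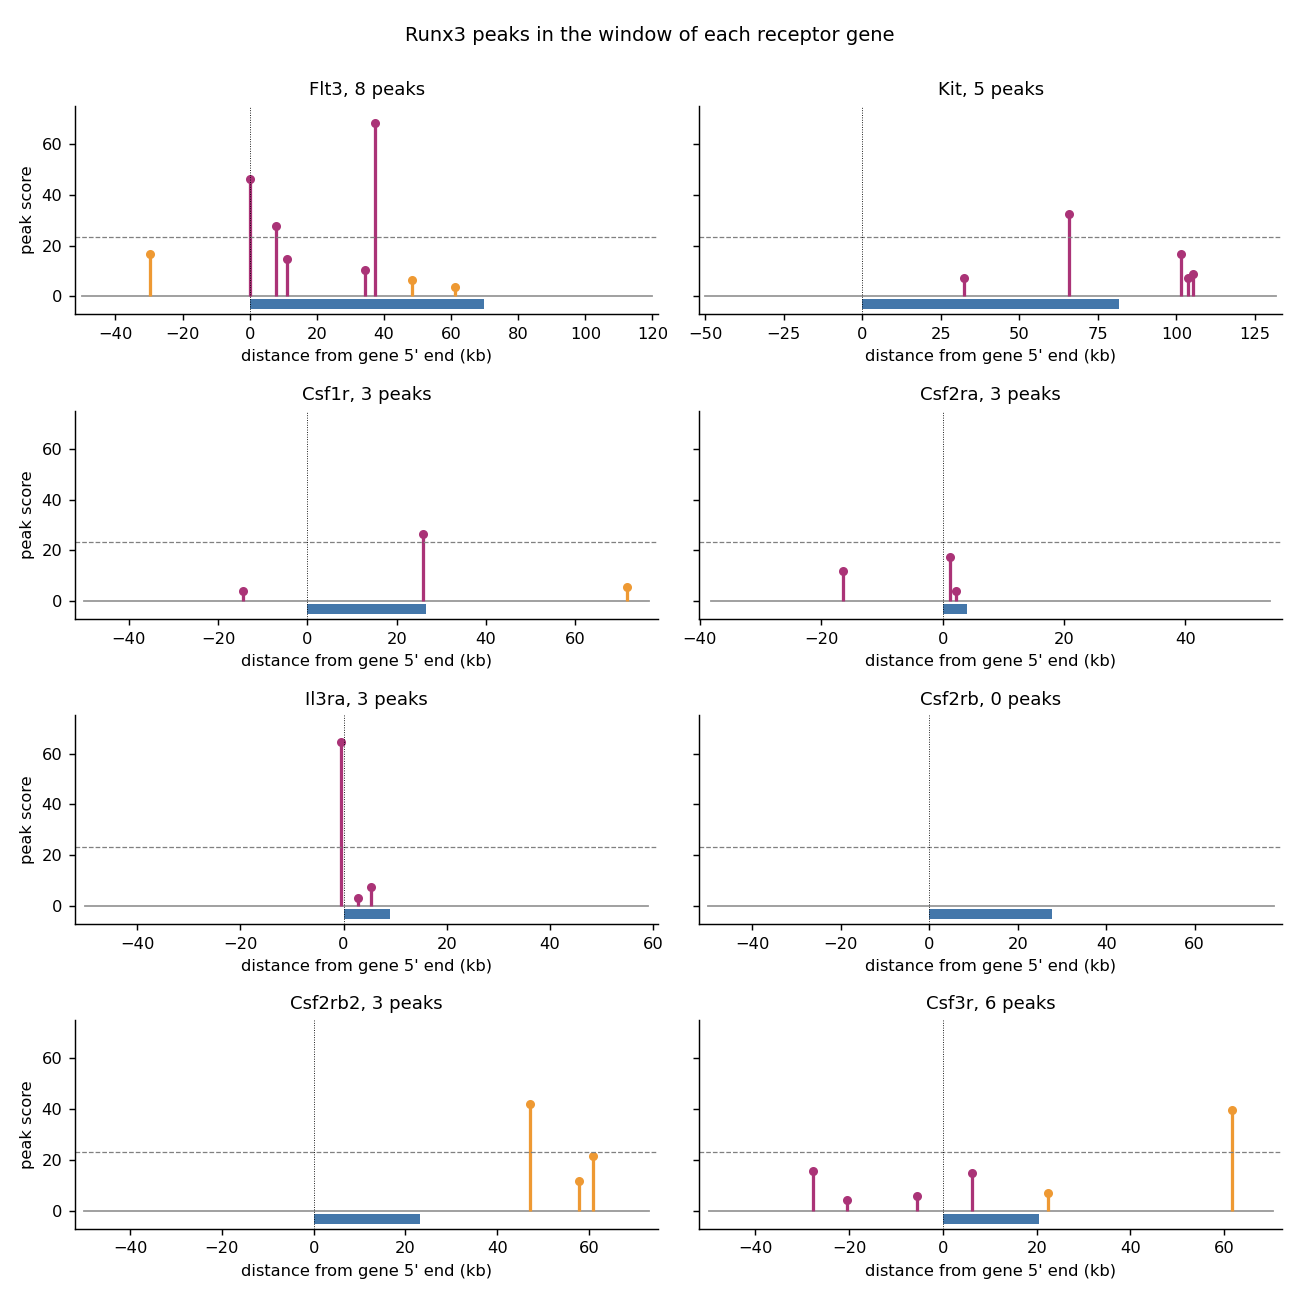
Each panel shows 1 receptor gene, with the distance from its 5' end in the direction of transcription on the x axis (kb), the gene body as a blue bar, the window as a grey line and each peak as a stem whose height is its score (y axis, unit not stated). Purple stems are nearest to a TSS of the receptor gene, orange stems to a TSS of another gene, and the dashed line is the upper quartile of the list at 23.19. Flt3 peaks run through the gene body, whereas all Csf2rb2 peaks lie beyond the 3' end and the Csf2rb panel is empty.

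Flt3 (ENSMUSG00000042817), the receptor for Flt3 ligand, lies on the minus strand at chr5:148142317-148212065 and held 7 peaks inside its 69749 bp. Only 61 of the protein-coding genes, or 0.273%, had 7 or more peaks in the body. The strongest peak at any receptor gene was chr5:148174537-148175124, with a score of 68.13, rank 507 of the list. Its centre lay in intron 9 of the longest coding transcript, 37235 bp from the 5' end of the gene. A shorter Flt3 transcript ends at position 148174133, and the same peak lay in its last exon. A weaker peak at chr5:148177550-148177991 with a score of 10.53 lay in the same intron.

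The second Flt3 peak, chr5:148211725-148212341, had a score of 46.24 and lay on exon 1, with its centre 32 bp from the TSS. This centre also lay within another annotated gene, Gm17398. Intron 1 held peaks at chr5:148204121-148204599, with a score of 27.76, and at chr5:148200607-148201128, with a score of 14.67. Thus 3 of the 8 Flt3 peaks passed the upper quartile of the list, more than at any other receptor gene, and they marked the promoter, intron 1 and intron 9. The 2 weakest lay toward the 3' end, in intron 15 (chr5:148163532-148163784, score 6.57) and intron 20 (chr5:148150823-148151085, score 3.68), and both were nearer to the TSS of Prhoxnb. The peak outside the body, chr5:148241409-148241862 with a score of 16.53, lay 29570 bp upstream of Flt3 but only 521 bp from the TSS of Pan3.

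TGTGGT, the hexamer that RUNX factors prefer, was found in 4 of the 8 Flt3 peaks. The 30 bases around the hexamer nearest to each centre are shown 5' to 3' on the strand that reads TGTGGT, with the hexamer in capitals, for the promoter peak (chr5:148211934-148211963, minus strand), the intron 1 peak (chr5:148200788-148200817, minus strand) and the strongest peak (chr5:148175106-148175135, minus strand).
Flt3 promoter: tccgagggaatcTGTGGTcagtgacgcgca
Flt3 intron 1: ttcacagcatgtTGTGGTtttgacttgtgt
Flt3 intron 9: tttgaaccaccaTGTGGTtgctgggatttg
The hexamer was 85 bp from the centre of the promoter peak and 65 bp from that of the intron 1 peak, but 290 bp from that of the strongest peak, at its edge. RUNX factors also tolerate a C at the first or the third base; when the hexamer TGCGGT and, in addition, the hexamer CGTGGT and the hexamer CGCGGT were accepted, the strongest peak held 4 such hexamers, the nearest 34 bp from its centre. The intron 1 peak with a score of 27.76 had no TGTGGT. It was also the only peak of the 31 in which some 50-mers, stretches as long as the reads, occurred elsewhere in the genome; 94.9% of its 50-mers were unique.

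Kit (ENSMUSG00000005672), the receptor for stem cell factor and a mark of early haematopoietic progenitors and mast cells, lies on the plus strand at chr5:75970941-76052747. Its 5 peaks all had a Kit TSS as the nearest one, yet none was near the 5' end of the gene, where the closest was 32478 bp away. That peak, chr5:76003193-76003645 in intron 2, had a score of 7.2. The strongest Kit peak, chr5:76036473-76037110 with a score of 32.29, was centred on exon 11, and 317 bp from the TSS of a processed transcript inside the gene. It is this internal TSS, not the promoter of the coding transcripts, that placed Kit among the genes with a peak at an own TSS. The other peaks formed a group beyond the 3' end, at 19718, 21793 and 23616 bp from it, with scores of 16.53 at chr5:76072112-76072818, 7.37 at chr5:76074388-76074692 and 8.96 at chr5:76076233-76076493.

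TGTGGT was present in 4 of the 5 Kit peaks. It was 3 bp from the centre of the last downstream peak (chr5:76076352-76076381, plus strand), 21 bp from that of the intron 2 peak (chr5:76003384-76003413, minus strand) and 225 bp from that of the exon 11 peak (chr5:76036552-76036581, plus strand). These 3 sites are shown because they span the weak and the strong Kit peaks.
Kit downstream: ttagttcctgtcTGTGGTgtcaggcaggag
Kit intron 2: ccaaatcctgccTGTGGTttggtcacctct
Kit exon 11 peak: gctcattggcttTGTGGTtgcagctggcgc
The hexamer nearest to a peak centre thus belonged to a peak with a score of 8.96, below the list median, while the strongest peaks of Flt3 and Kit carried it far from their centres.

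Csf1r (ENSMUSG00000024621), the receptor for CSF-1 and IL-34, lies on the plus strand at chr18:61265226-61291803 and had 3 peaks. The strongest, chr18:61290880-61291379 with a score of 26.57, lay on exon 21 at the 3' end of the gene, where the gene Hmgxb3 overlaps it. A peak at chr18:61250745-61251038 with a score of 4.23 lay 14335 bp upstream, and chr18:61336698-61337000 with a score of 5.7 lay 145 bp from the TSS of Hmgxb3. No peak lay near the Csf1r promoters, the closest being the upstream one. TGTGGT was found in the first and second of these, 45 and 49 bp from their centres. The peaks at the 3' end and upstream were also the 2 peaks counted at Pdgfrb, the neighbouring receptor gene.

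Csf2ra (ENSMUSG00000059326), the GM-CSF binding chain of its receptor, is a gene of 4017 bp on the minus strand at chr19:61300305-61304321, close enough to the end of the chromosome that its window was cut to 92126 bp. It held 2 peaks in its body. The stronger, chr19:61302722-61303466 with a score of 17.32, lay in intron 2, and the weaker, chr19:61301770-61302355 with a score of 4.23, in intron 6. The third was 16486 bp upstream, at chr19:61320625-61320990, and had a score of 11.96. The centre of the intron 2 peak was 1227 bp from the TSS and so just outside the limit of 1 kb.

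TGTGGT was found in 1 of the 3 Csf2ra peaks, that of intron 2, at 15 bp from its centre (chr19:61303065-61303094, plus strand).
Csf2ra intron 2: gccggcgtccggTGTGGTcggagctggaag
Both peaks in the Csf2ra body also carried many copies of TGACGT, the core of the motif bound by zDC (Zbtb46), a factor of classical DC, and of the related CREB and ATF sites. Counted on either strand, so that the palindrome TGACGTCA counts as 2, there were 6 matches in the intron 2 peak and 8 in the intron 6 peak. Among all 15121 peaks, 3 had 6 or more matches and 1, the Csf2ra intron 6 peak, had 8. The stretches with the most matches are shown on the plus strand, with every match in capitals (TGACGT, or ACGTCA where it lies on the other strand), for intron 6 (chr19:61302196-61302355) and intron 2 (chr19:61302902-61303061).
Csf2ra intron 6: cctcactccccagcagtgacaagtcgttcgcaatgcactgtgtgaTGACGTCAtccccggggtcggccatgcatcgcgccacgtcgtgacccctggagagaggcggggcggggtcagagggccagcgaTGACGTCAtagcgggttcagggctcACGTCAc
Csf2ra intron 2: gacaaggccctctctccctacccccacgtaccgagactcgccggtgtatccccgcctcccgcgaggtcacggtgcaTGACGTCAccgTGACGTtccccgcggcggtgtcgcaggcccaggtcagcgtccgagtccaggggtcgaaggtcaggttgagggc
The copies were not confined to the peaks. The whole Csf2ra body had 23 matches, or 5.73 per kb, and 3.35 per kb outside its peaks, where the genome had 0.0823 per kb and the bodies of Flt3, Kit, Csf1r, Csf2rb, Csf2rb2 and Csf3r had between 0.049 and 0.172 per kb. The Csf2ra body is also rich in G and C, at 64.3% against 41.8% of the genome, and the part of base composition in these counts was not tested.

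Il3ra (ENSMUSG00000068758), the IL-3 binding chain, is a gene of 8996 bp on the plus strand at chr14:15179009-15188004. Its strongest peak, chr14:15178042-15178969, was centred 504 bp upstream of the TSS and had a score of 64.72, rank 571 of the list. At 928 bp it was also the widest of the 31 peaks, whose median width was 442 bp. The body held weak peaks in exon 5 (chr14:15181727-15182017), with the lowest score of all 31 peaks at 3.17, and in intron 9 (chr14:15184045-15184452), with a score of 7.53. The strongest Il3ra peak was thus the one at the promoter, and Flt3 was the only other receptor gene with a peak within 1 kb of its 5' end.

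TGTGGT was found in 1 of the 3 Il3ra peaks, that of intron 9, 59 bp from its centre (chr14:15184293-15184322, minus strand). The promoter peak had none. TGACGT was found 2 times in the promoter peak and 3 times in the exon 5 peak, of which a stretch of the plus strand is shown with the matches in capitals (chr14:15181849-15182008).
Il3ra intron 9: ggaagtgatgggTGTGGTcagaaaaggaag
Il3ra exon 5: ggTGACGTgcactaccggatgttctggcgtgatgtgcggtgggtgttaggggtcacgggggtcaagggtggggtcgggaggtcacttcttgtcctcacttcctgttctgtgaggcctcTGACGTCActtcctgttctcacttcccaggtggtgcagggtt
TGACGT was thus in 4 of the 6 peaks of the alpha chain genes Csf2ra and Il3ra and in 0 of the 25 peaks of the other receptor genes. This split between the genes was noticed after the motif counts were seen, and it was not tested. The Il3ra body had 0.778 matches per kb, and 0.482 outside its peaks. The windows of these genes were also the least unique of the 8, with 80.9% of 50-mers found once for Csf2ra and 74.3% for Il3ra against 88.5% for the genome, although all 50-mers of their 6 peaks were unique.

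Csf2rb and Csf2rb2 encode the beta chains of the GM-CSF, IL-3 and IL-5 receptors; Csf2rb serves all of them and Csf2rb2, found in mice, serves IL-3. They lie head to head on chromosome 15. Csf2rb (ENSMUSG00000071713, chr15:78156420-78184277, plus strand) had no peak in its window, and the closest peaks were centred 52868 bp beyond one end, near the TSS of Mpst with a score of 11.24, and 67589 bp beyond the other. Csf2rb2 (ENSMUSG00000071714, chr15:78112947-78136052, minus strand) had 3 peaks, all beyond its 3' end, at 24116, 34672 and 37670 bp from the body. They were chr15:78088554-78089108 with a score of 41.94, chr15:78078098-78078452 with a score of 11.96 and chr15:78074972-78075583 with a score of 21.68. All of them were nearest to the TSS of Ncf4, which encodes a subunit of the phagocyte NADPH oxidase, at 2477, 3001 and 3 bp. By the nearest TSS rule, neither beta chain gene had a peak.

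TGTGGT was in 1 of the Csf2rb2 peaks, 34 bp from its centre (chr15:78078295-78078324, minus strand); it was not in the strongest peak of this window.
Csf2rb2 downstream: ctggggcacctcTGTGGTcactggggcctt
The authors kept uniquely aligned reads, and the beta chain genes are closely related in sequence. They shared 3609 50-mers, which is 13.0% of those of Csf2rb and 15.7% of those of Csf2rb2. In all, 86.0% of the 50-mers of the Csf2rb body and 83.2% of those of the Csf2rb2 body were found once in the genome. Within 1 kb of the TSS the share was 83.9% for Csf2rb and 93.7% for Csf2rb2. Most of both genes could thus receive reads, and the part of the remaining bases in the missing peaks was not tested. The absence of a peak at Csf2rb says that none was called at this depth.

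**Figure D3:**
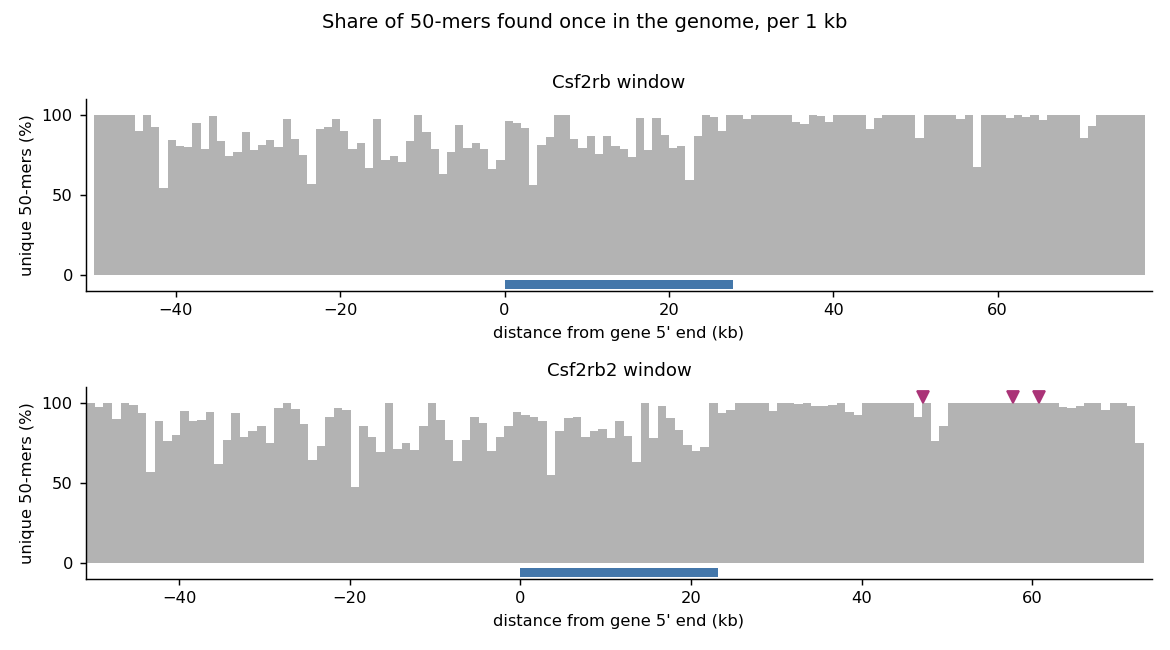
Grey bars give the percentage of 50-mers found once in the genome (y axis) in each 1 kb of the windows of Csf2rb and Csf2rb2, by distance from the 5' end of the gene (x axis, kb); blue bars are the gene bodies and triangles the peaks. No peak lies in the less unique stretch that spans both gene bodies, and the 3 Csf2rb2 peaks lie in the more unique part of its window.

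Csf3r (ENSMUSG00000028859), the G-CSF receptor of neutrophils and their precursors, lies on the plus strand at chr4:125701794-125722219. Its 6 peaks were the densest of the 8 windows, at 4.98 per 100 kb against 4.71 at Flt3, and 4.98% of protein-coding genes were as dense or denser. Upstream lay 3 peaks, at 27747 bp (chr4:125673877-125674218, score 15.73), 20536 bp (chr4:125681132-125681384, score 4.23) and 5541 bp (chr4:125696124-125696382, score 5.81) from the TSS. The body held 1 peak, in intron 3 (chr4:125707894-125708272, score 14.96). Downstream, chr4:125724081-125724409 with a score of 7.2 lay 24 bp from the TSS of Mrps15. The strongest peak of the window, chr4:125763325-125763788 with a score of 39.55, lay 41337 bp beyond the Csf3r body and 1367 bp from the TSS of Oscp1. The 4 peaks assigned to Csf3r by nearest TSS thus all scored 15.73 or less.

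TGTGGT was present in 5 of the 6 Csf3r peaks, between 20 and 75 bp from their centres, and the Mrps15 peak was the exception. The intron 3 site is at chr4:125708033-125708062 and the upstream site of the peak with a score of 15.73 at chr4:125674108-125674137 (minus strand). The centre of the strongest peak (chr4:125763486-125763626, plus strand) is shown because it held 2 copies.
Csf3r intron 3: gagtcacacttcTGTGGTcttggtgctact
Csf3r upstream: accccaaaactgTGTGGTtctctgtgggaa
Csf3r window, strongest peak: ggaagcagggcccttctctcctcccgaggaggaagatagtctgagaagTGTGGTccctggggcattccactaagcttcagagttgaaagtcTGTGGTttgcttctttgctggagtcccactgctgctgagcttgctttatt
All 4 peaks nearest to a Csf3r TSS thus held the hexamer, although 2 of them ranked in the lower part of the list with scores of 4.23 and 5.81.

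**Figure D4:**
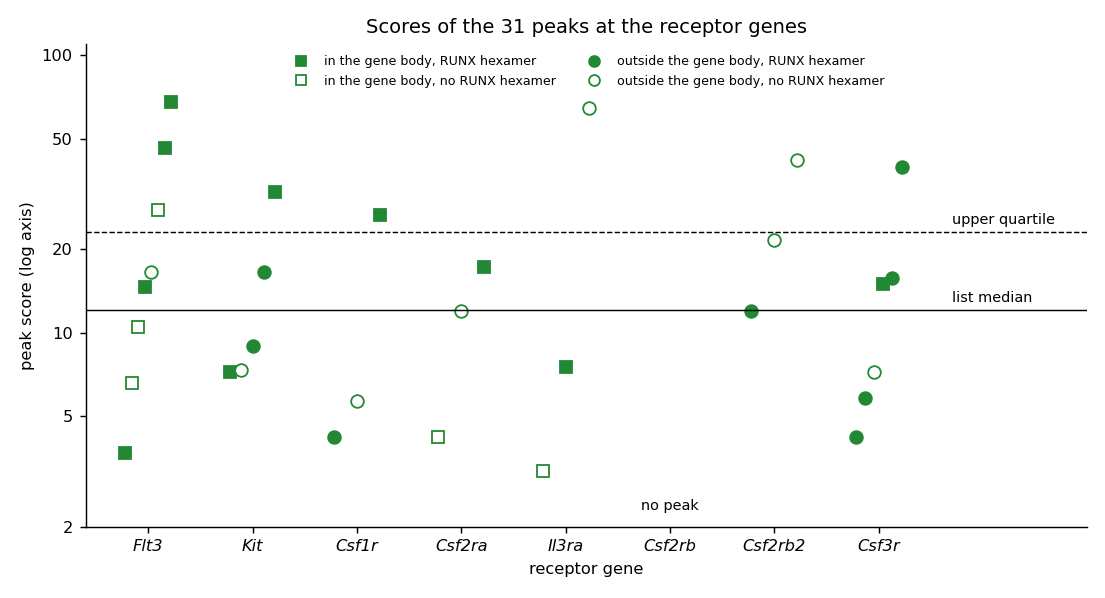
Peak scores (y axis, log scale, unit not stated) are plotted for each receptor gene, with squares for peaks in the gene body, circles for peaks outside it and filled symbols for peaks with TGTGGT. The solid and dashed lines are the median and the upper quartile of the list, at 12.14 and 23.19, and 8 of the 31 peaks lie above the dashed line.

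Over all receptor genes, 18 of 31 peaks, or 58.1% (Wilson 95% interval 40.8 to 73.6), held TGTGGT on either strand, against 54.0% of all peaks. In windows of the same width 10 kb downstream of the receptor gene peaks the count was 8 of 30, and 10 kb upstream it was 10 of 31. For all peaks the downstream share was 30.9%. The interval for the receptor gene peaks thus held the share of the whole list, and in both sets more peaks than downstream windows held the hexamer. Receptor gene peaks with the hexamer had a median score of 14.815 and those without it 10.53, and over the whole list the medians were 14.2 and 10.53. Among the 25 matches in receptor gene peaks, the base after TGTGGT was C in 10, T in 8, G in 6 and A in 1. Over all 12274 matches T followed in 40.5% and C in 23.5%. The 25 matches lay in only 18 peaks, and this difference was not tested.

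The other motifs searched on both strands were AGGAAGT, the core of ETS sites such as those of PU.1, TGANTCA for AP-1, TGGGAA for RBPJ, the nuclear mediator of Notch signals, and TTGCNNAA for C/EBP. AGGAAGT was found in 10 of the 31 peaks, or 32.3%, and in 29.4% of all peaks, with the most matches, 5, in the Il3ra intron 9 peak. TGGGAA was found in 16 peaks, or 51.6% (interval 34.8 to 68.0), and in 35.2% of all peaks, with 13 of the 31 windows upstream and 9 of the 30 windows downstream holding it. TTGCNNAA was found in 7 peaks, or 22.6%, against 16.1% of all peaks. TGANTCA was found in 1 peak, or 3.23% (interval 0.572 to 16.2), the weakest Flt3 peak, against 13.2% of all peaks. The intervals cover counting error only, and peaks of 1 gene are not independent of each other.

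**Figure D5:**
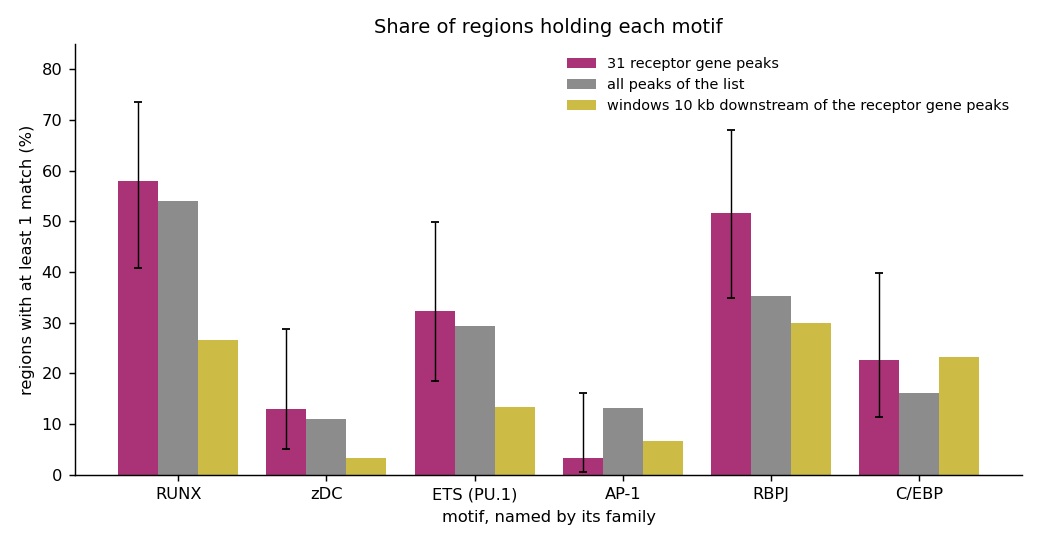
Bars give the percentage of regions with at least 1 match to each motif (y axis) for the 31 receptor gene peaks, for all peaks of the list and for windows 10 kb downstream of the receptor gene peaks, with Wilson 95% intervals as error bars on the first. The RUNX bars stand at 58.1, 54.0 and 26.7%, and the interval of every motif on the receptor gene peaks holds the share of the whole list.

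The limit of 50 kb placed few peaks at its edge. Just inside were a Csf1r peak at 45046 bp from the body with a score of 5.7 and the Csf3r peak at 41337 bp. Just outside were peaks at 51673 bp from Csf3r with a score of 7.2, at 51902 bp from Il3ra with a score of 7.68 and the Mpst peak at 52868 bp from Csf2rb. Within 100 kb all 8 genes had a peak, as did 72.1% of protein-coding genes.

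Other genes of these pathways were taken from lists of ligands, related receptors and signalling proteins. Of 8 ligand genes, 5 had a peak, or 62.5%, close to the 62.6% of all protein-coding genes, with 7 at Flt3l, which encodes the ligand of Flt3, and 5 at Il5, while Kitl, Csf3 and Il3 had none. Of 9 related receptor genes, 8 had a peak, or 88.9%, with 4 at Epor and 3 at Il7r and none at Pdgfra, the neighbour of Kit. Of 27 signalling genes, all had a peak, with 10 at Grb2, an adaptor of receptor tyrosine kinases, and 8 each at Tyk2 and Inpp5d. The median was 1.5 peaks for ligands, 2 for related receptors and 4 for signalling genes, beside 3 for the receptor genes and 1 for all protein-coding genes. Neighbouring genes share peaks, so that Stat3, Stat5a and Stat5b all counted the same peak with a score of 146.47.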

How the data were processed

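The 2 Runx3 and 2 input samples were sequenced with reads of 50 bp. Per the submitters' processing notes, CASAVA 1.8, Bowtie and MACS2 were used with the mm9 build; the versions of the latter tools, the threshold and the handling of duplicate reads are not given in the sources used here. The authors kept uniquely aligned reads and called 1 peak list on the pooled samples, and the score values were deposited as MACS2 wrote them.

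Peaks were placed by their centre, on NCBIM37 sequence (the mm9 assembly) with GENCODE M1 genes, and exon and intron numbers follow the transcript with the longest coding sequence. Motifs were searched on both strands of whole peaks, with windows of equal width 10 kb away beside them. A 50-mer was called unique when it occurred once on either strand of the genome. All values are descriptions and no test was run, since there is 1 list. Intervals are Wilson 95% intervals for shares and order-statistic 95% intervals for medians.

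The members and lists were chosen with earlier results of these data known. All 8 receptor genes and all their peaks were named; of the other lists, at most the 2 genes with the most peaks (3 where tied) and those with none were named, Stat3, Stat5a, Stat5b and Pdgfrb being added because they share peaks. Alternatives were other distances, score limits, any base of a peak, joined peaks, the nearest TSS, other TSS rules and other hexamer rules. The result for 1 marker gene is not reported here. Counting code was checked on simulated data. Scripts ran under Python 3.11.15 with numba 0.67.0, pandas 2.3.3, scipy 1.17.1 and numpy 2.4.6.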

Additional observations from a re-analysis of the deposited data

How the results depend on the processing

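The 31 peaks became 15 with the gene body alone, 18 within 10 kb, 15 when scores below the list median were dropped and 8 when those below the upper quartile were dropped. The median score rose by construction to 26.57 and 40.745 under these score limits. The largest number at 1 gene, 8 at Flt3, fell to 5 and 3 under the same limits, and to 5, shared by Flt3 and Kit, when peaks went to the nearest TSS. Within 100 kb the largest number was 10, at Csf3r, while Flt3 kept 8. Of the 44 other pathway genes, 40 had a peak, and 20 with the gene body alone, beside 62.6% and 23.2% of all protein-coding genes. Of the 8 receptor genes, 3 had a peak at an own TSS, and 5 within 5 kb, a rule for which no share of all genes is given. The TGTGGT share of 58.1% was 83.9% when 4 hexamers were accepted, beside 76.6% of all peaks under the same rule. For TGTGGT alone it was 26.7% in windows downstream and 32.3% in windows upstream. Between 6 and 8 receptor genes had a peak under every alternative. Within 10 kb the count was 6 of 8, beside 43.4% of protein-coding genes. Csf2rb gained its first, 6 peaks, within 100 kb, and Csf2rb2 lost all of its peaks within 10 kb and by nearest TSS. Of 57 alternative values of the main results, 43 stayed within 1.5 times the count or inside the interval and 14 moved. For the counts at each receptor gene, 39 alternative values were equal or within 1.5 times the count and 25 moved. No paired analysis was possible because the replicates were pooled into 1 list before peaks were called. No depth per sample was analysed, so a weak region without a peak cannot be told from an unbound one, and no value has a replicate error.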
